A study of Mus musculus with 6 samples.

Results

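The genes transcribed by wild-type (WT) mouse bone marrow-derived macrophages after LPS were ranked by their level in 3 libraries, the WT replicates of a series of 6. Bone marrow-derived macrophages are marrow cells grown out into macrophages in culture. LPS, lipopolysaccharide, is a component of the outer membrane of Gram-negative bacteria. All 3 WT libraries, called WT-1, WT-2 and WT-3, came from cells kept with LPS for 24 h. The other 3 libraries, from Capns1 knockout (KO) cells with the same treatment, entered only the check of the labels. Cells without LPS were not analysed here, so every value is a level after 24 h of LPS and none is a response to it. The labels give no mouse strain, age or LPS dose. They name the KO genotype with a different Capns number in each replicate, while the series' own text names Capns1 and a myeloid-specific deletion. The labels also do not say whether the replicates were separate animals or cultures, so the spread between them may be technical.

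Levels are in FPKM, the read count of a gene divided by its length and by the total of its library. The gene lengths given here are those implied by the counts and FPKM. WT-1, WT-2 and WT-3 held 34694014, 39630300 and 40913819 counts. A gene was termed expressed with at least 1 FPKM in each of the 3 libraries. By this rule 9117 of the 16266 genes in the tables (56.0%) were expressed, and 9088 of them were protein-coding. Each of the 16266 had at least 1 count in at least 1 of the 6 libraries. Genes without any count are thus absent, and the shares of all genes and of lists given below leave them out. A further 477 genes reached 1 FPKM in 1 or 2 libraries, 6672 reached it in none, and 727 had no count in any of the 3. Bace1, at 1.00 FPKM in its lowest library, lay just inside the limit, and Zmym6, at 0.999988, lay just outside it. The median expressed gene had 9.56 FPKM. Means of at least 10 FPKM were found for 4443 expressed genes, of at least 100 for 660, and of at least 1000 for 50.

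Macrophages sense LPS with TLR4, which acts with the proteins CD14 and MD-2. One arm of its signalling activates NF-kappa-B and AP-1 factors, which act on inflammatory cytokine genes. Another arm activates IRF3, leads to interferon beta, and through its receptor turns on interferon-stimulated genes. Many first-wave cytokine transcripts are short-lived, and macrophages that stay in LPS build up proteins that damp further signalling.

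The RefSeq sequences (GRCm38.p6) before the starts of 5 genes are given as examples from different parts of the profile. Saa3 was the most abundant transcript, Isg15 stands for the interferon-stimulated genes, Irf7 was the most abundant transcription factor transcript, Il1b was an abundant cytokine transcript, and Il6 had almost no counts. Each run is the 250 bases before a listed start, 5′ to 3′ on the gene's strand, and capitals mark matches to the searched motifs.
Saa3, chr7:46715677-46715926, minus strand: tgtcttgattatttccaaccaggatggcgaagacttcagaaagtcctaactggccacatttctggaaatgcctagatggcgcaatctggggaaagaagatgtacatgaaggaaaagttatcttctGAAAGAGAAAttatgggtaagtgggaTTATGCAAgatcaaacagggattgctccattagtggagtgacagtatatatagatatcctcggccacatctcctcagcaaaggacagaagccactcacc
Isg15, chr4:156200819-156201068, minus strand: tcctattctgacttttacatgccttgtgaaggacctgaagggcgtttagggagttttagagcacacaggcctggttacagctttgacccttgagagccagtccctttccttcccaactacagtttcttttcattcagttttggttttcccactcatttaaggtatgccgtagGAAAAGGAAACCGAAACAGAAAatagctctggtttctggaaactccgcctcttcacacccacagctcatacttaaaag
Irf7, chr7:141266425-141266674, minus strand: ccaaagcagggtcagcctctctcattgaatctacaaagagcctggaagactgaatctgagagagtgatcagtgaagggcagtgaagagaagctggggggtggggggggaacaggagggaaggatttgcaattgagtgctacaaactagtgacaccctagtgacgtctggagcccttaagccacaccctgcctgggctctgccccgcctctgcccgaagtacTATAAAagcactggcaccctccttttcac
Il1b, chr2:129371140-129371389, minus strand: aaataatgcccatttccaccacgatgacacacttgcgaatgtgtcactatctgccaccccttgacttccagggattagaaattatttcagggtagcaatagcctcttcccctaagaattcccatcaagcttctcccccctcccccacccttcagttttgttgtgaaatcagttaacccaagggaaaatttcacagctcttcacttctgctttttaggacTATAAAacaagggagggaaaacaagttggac
Il6, chr5:30012864-30013113, plus strand: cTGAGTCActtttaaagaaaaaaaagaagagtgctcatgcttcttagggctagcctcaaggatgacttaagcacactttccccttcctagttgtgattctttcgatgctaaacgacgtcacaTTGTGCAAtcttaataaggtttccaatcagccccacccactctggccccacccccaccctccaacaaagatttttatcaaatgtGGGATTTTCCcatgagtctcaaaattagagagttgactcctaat

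Both strands were searched for the C/EBP motif, TTGCNNAA, and for the kappa-B consensus. The interferon-stimulated response element, which interferon-activated factors bind, was searched as a pair of GAAA blocks with 2 bases between them. The motif of PU.1 was read as GAGGAA on either strand. The AP-1 motif was read as TGANTCA, also on either strand. A TATA box was searched on the gene's strand alone, as TATAAA. Different motifs could overlap. Positions are negative and count back from the start. In Saa3 the capitals are an interferon-stimulated response element match at -125 to -116 and a C/EBP match at -99 to -92. Isg15 held 3 response element matches that overlap, from -78 to -57. Irf7 and Il1b each held a TATA match, which began at -29 and -31. Il6 held an AP-1 match at -249, a C/EBP match at -128 and a kappa-B match at -44. Over all 32851 windows of the RefSeq table outside chromosome 18, 9.56% held the C/EBP motif, 7.25% kappa-B, 2.98% the response element, 23.3% PU.1, 6.75% AP-1 and 7.59% TATA. Among 36 windows of expressed interferon-response genes, 14 held the response element. A match describes the letters of a window and is not evidence of a bound site.

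The transcript of Saa3, serum amyloid A3, an acute-phase protein that macrophages make, stood far above all others. It reached 113980.0, 122825 and 108407 FPKM, 115071 ± 7271 FPKM (SD, n = 3, as for every ± below), and made up 19.3% ± 0.563 of the summed FPKM of a library. Even its lowest value was above every value of the next gene, Fth1, which had 35484, 34196 and 36869.7 FPKM. Saa3 is counted over only 531 bases, so its share of the reads was smaller, at 6.11% of counts. Its relatives Saa1 and Saa2 had 10.2 ± 0.866 FPKM and 5.23 ± 0.0296 FPKM. Saa3 lies on chromosome 7 at 46711998 to 46719615 (GRCm38.p6).

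Iron storage, lysosomal digestion and lipid carriage filled the next ranks. Fth1 and Ftl1, the heavy and light chains of ferritin, which stores iron, had 35517 ± 1337 and 14706 ± 381 FPKM. Lyz2, lysozyme, which cleaves bacterial cell walls, had 27964, 30167 and 22513 FPKM, lowest in WT-3. Apoe, a lipoprotein component, had 10656, 11930.0 and 11346 FPKM. Ccl5, a chemokine that draws T cells and monocytes, had 7768, 7390.2 and 8777 FPKM, highest in WT-3. WT-1 was the lowest library for Apoe. The cathepsin proteases Ctsd and Ctsb had 5305, 5852 and 5823 FPKM and 4494, 5152 and 5030.3 FPKM. Every Ctsd value was above every Ctsb value and under every Ccl5 value. Close to them lay Tmsb4x, which binds actin monomers (6159.9, 5812 and 4160.4 FPKM), Psap, the precursor of lysosomal saposins (4666 ± 477 FPKM), and B2m, the light chain of MHC class I (4905, 4803 and 3552 FPKM). WT-3 was again the lowest library for Tmsb4x and B2m, and the ranges of Tmsb4x, Ctsb, Psap and B2m overlapped, so the order of these 4 is not resolved. Every Ctsd value was also above every Psap and B2m value, while the ranges of Ctsd and Tmsb4x overlapped. Ranks 12 to 25 lay between 1633 and 2926 FPKM and ran from Ifitm3, Actb and Eef1a1 through the 3 chains of C1q to H2-D1 and Rps29.

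**Figure D1:**
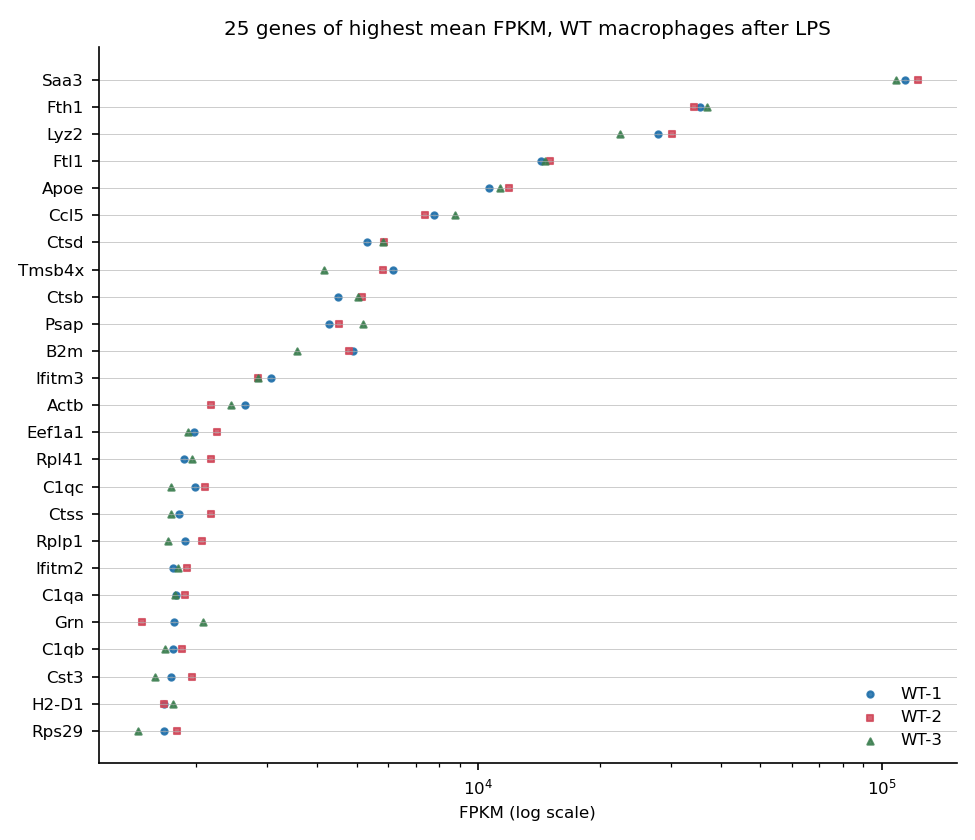
FPKM on a log axis for the 25 genes of highest mean, with 1 point per WT library. Saa3 sits near 115071 FPKM, clear of Fth1 and Lyz2, and from Actb down the points of neighbouring genes overlap.

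A small part of the genes held a large share of the transcript total. The 10 highest genes made up 38.8% ± 0.435 of the summed FPKM, the 100 highest 55.9% ± 0.511 and the 1000 highest 81.4% ± 0.556. Only 53 genes were needed to reach 50% of it, and 2205 to reach 90%. In counts, which are not corrected for length, the 10 highest genes held 20.6%.

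Some of these levels rest on genes that share sequence with transcripts of other genes. The share of a gene's 32-base words that also occur in transcripts of other genes was 31.7% for Lyz2, 57.4% for Ftl1, 33.1% for Ctsd, 49.4% for Eef1a1 and 74.1% for Rplp1. The sources used here do not state how reads with more than 1 possible origin were counted, so these levels are uncertain. Lyz2 and its neighbour Lyz1 summed to 26943.5 ± 3940.01 FPKM, of which Lyz1 had 62.4 ± 6.62 FPKM. Ifitm2 and Ifitm3, which keep viruses from fusing with the cell, had 1819.5 ± 73.7 and 2926 ± 126 FPKM and share 55.0% and 19.8% of their words with other genes. Their sum was 4745 ± 83.2 FPKM, with a CV (SD over mean) of 1.75%. Of genes named further on, Aarsd1, Chil3, Fpr2, Gbp8, Hamp, Ifnz, Mif, Pkm, Rnaset2a, Rnaset2b, Saa1, Saa2, Tgtp1, H2bc4, Hspa1a and Hspa1b likewise share over 30% of their words.

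Grouping the genes by lists gave 741 expressed of 826 members (89.7%), beside 56.0% of all genes. The lists were drawn up for this cell type, some share members, and their shares of the FPKM total describe these libraries alone. Iron storage and transport, led by ferritin, took 8.83% ± 0.476 of the FPKM, with 18 of 21 members expressed. In counts, which are not divided by length, its share was 5.22%. Below ferritin came Lcn2, which binds bacterial iron carriers (958 ± 136 FPKM), Hmox1, which breaks down haem (451 ± 58.5 FPKM), and Slc11a1, a metal pump of the phagosome (269 ± 22.7 FPKM). Steap4, Hpx and Hamp, the last of which encodes hepcidin, were at 0.133, 0.117 and 0.0207 FPKM.

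Lysosomal hydrolases and membrane proteins took 6.94% ± 0.264 (6.75% of counts, above iron storage), and all 48 members were expressed. Most of this share was Lyz2, whose uncertain level alone made up 4.49% of the FPKM. After Lyz2 and Psap came Grn, the progranulin gene (1768, 1469 and 2085 FPKM), Lamp1, a lysosomal membrane protein (1460.5 ± 21.7 FPKM), Gpnmb (837 ± 113 FPKM) and Laptm5 (749 ± 168 FPKM). Grn and Laptm5 were lowest in WT-2 and highest in WT-3. Cathepsins and cystatins, the proteases and their inhibitors, took 3.07% ± 0.132, with 17 of 18 expressed. Ctss and Ctsz stood at 1911 ± 239 and 1315 ± 13.5 FPKM, and the inhibitor Cst3 at 1759 ± 185 FPKM. Ctsw, a protease of killer lymphocytes, was at 0.0454 FPKM. All 18 subunits of the vacuolar proton pump, which acidifies lysosomes, were expressed, at a median of 131 FPKM.

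Cytosolic ribosomal proteins took 6.78% ± 0.494, from 80 of 83 members, and 3.12% of counts. Rpl41 (2004 ± 165) and Rplp1 (1886 ± 184 FPKM) led them, and many members have processed copies in the genome. The nuclear genes of oxidative phosphorylation took 2.37% ± 0.133 (84 of 88 expressed; 1.27% of counts), led by Cox4i1 and Cox8a (695 ± 10.98 and 673 ± 80.8 FPKM). Glycolysis took 0.422% ± 0.0148 (0.744% of counts), led by Aldoa at 635 ± 15.1 FPKM. In that list Pkm, Tpi1, Eno1 and Gpi1 had 275, 274, 269 and 243 FPKM. Actin cytoskeleton genes took 2.94% ± 0.167, and all 43 were expressed. Actb, Cfl1 and Pfn1 followed Tmsb4x there, at 2426 ± 238, 1404 ± 86.5 and 1039 ± 83.8 FPKM.

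Genes often used as references differed widely in level. B2m, Actb and Ppia were above 1000 FPKM, Hprt had 57.8, 61.7 and 50.2 FPKM, and Gapdh had 16.7, 19.2 and 16.9 FPKM. Gapdh, a glycolysis enzyme usually listed among abundant transcripts, thus ranked 3087 here, with 1005, 1323 and 1201 counts. Words of other transcripts made up 27.1% of its sequence. The part of read assignment in this value was not tested.

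All 39 type I interferon response genes in the tables were expressed, at a median of 79.4 FPKM, and they took 1.86% ± 0.108 of the total. Ifitm3, Ifitm2 and Irf7 led the list. Bst2, tetherin, which holds budding virus at the cell surface, had 1506, 1277 and 1167 FPKM, highest in WT-1. Isg15, a ubiquitin-like protein, had 389, 310.01 and 257 FPKM, again highest in WT-1. The same held for 34 of the 39 genes, beside 26.4% of all expressed genes, and WT-3 was highest for 0. Over the list, the median log2 deviation from a gene's own mean was 0.17 in WT-1, -0.04 in WT-2 and -0.14 in WT-3. Ifi27l2a and Slfn2 had 788 ± 75.6 and 425 ± 68.9 FPKM. Guanylate-binding proteins and immunity-related GTPases, which interferon gamma raises in many cells, were lower. Of these 15 of 17 were expressed, and the median over the whole list was 7.64 FPKM. Ifi47 (84.7 ± 15.1 FPKM), Irgm1 (57.9 ± 7.45 FPKM) and Igtp (45.9 ± 7.35 FPKM) led them, and Tgtp1 and Gbp8 were at 0.364 and 0.360 FPKM.

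MHC class I and MHC class II transcripts lay far apart. The class I list, with its peptide-loading genes, had 19 of 20 members expressed and took 1.64% ± 0.0953. H2-D1 and H2-K1, classical class I heavy chains, had 1698 ± 48.9 and 585 ± 17.6 FPKM. The class II list had 6 of 11 expressed, near the 56.0% of all genes, and took 0.0203% ± 0.00363. Cd74, the invariant chain, had 65.4, 78.3 and 99.6 FPKM, lowest in WT-1 and highest in WT-3. H2-Ab1 and H2-Aa, which form a class II molecule, had 11.04 ± 1.22 and 8.23 ± 1.27 FPKM, and Ciita, the class II transactivator, had 0.117 ± 0.0681 FPKM.

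Complement genes, which tag microbes and debris for uptake, took 1.50% ± 0.0192, with 20 of 23 expressed. C1qa, C1qb and C1qc, the chains of the first component, had 1817 ± 59.6, 1762 ± 86.1 and 1943 ± 189 FPKM, and the ranges of all 3 overlapped. Cfb and Cfp, factors of the alternative pathway, had 1158 ± 123 and 1010.1 ± 43.7 FPKM. Cfb shares 75.4% of its words with other genes. Serping1, which inhibits C1, and C5ar2 were at 0.455 and 0.178 FPKM.

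Lipid handling took 2.45% ± 0.156, with 31 of 32 expressed. Apoe was followed by Pltp, a phospholipid transfer protein (816 ± 172 FPKM), and Fabp5, a fatty acid-binding protein (254 ± 65.5 FPKM). Ch25h, which makes 25-hydroxycholesterol, was below 1 FPKM, at 0.254 ± 0.0141 FPKM. Antioxidant genes took 0.993% ± 0.0511, led by Gpx1, Prdx5 and Prdx1 (1578 ± 167, 1146 ± 142 and 646 ± 103 FPKM). Slc7a11, the cystine carrier, was at 0.172 FPKM. Galectins, S100 proteins and annexins were all expressed, led by Lgals3bp at 1249.6 ± 188 FPKM.

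**Figure D2:**
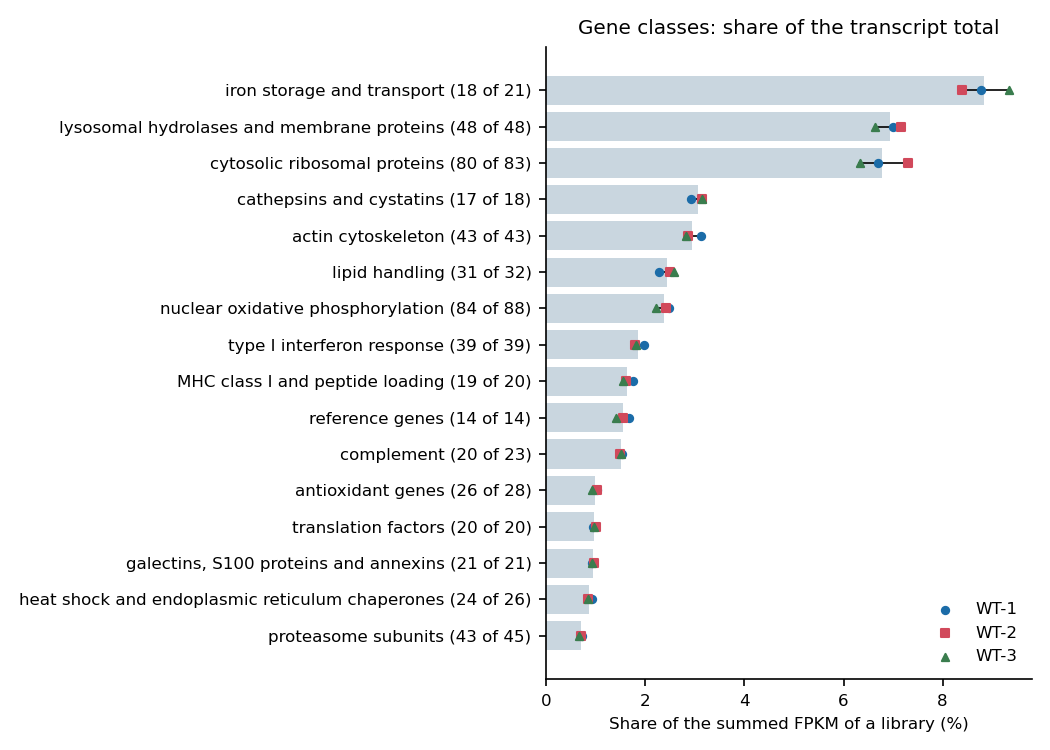
Share of the summed FPKM (percent) of the 16 class lists with the largest shares. Bars are means, error bars are SD over 3 WT libraries, points are the libraries, and brackets give expressed members of those in the tables; iron storage leads at 8.83% of FPKM, though in counts it takes 5.22% and lysosomal genes 6.75%, and lists with shared members are each shown whole.

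Enzymes of arginine and itaconate metabolism were unevenly present. Acod1, which makes itaconate and is a marker of LPS-treated macrophages, had 54.5, 54.4 and 49.6 FPKM. Nos2, inducible nitric oxide synthase, had 0.557, 0.775 and 0.825 FPKM (83, 132 and 145 counts), under the limit in each library. Arg1 had 0.254, 0.410 and 0.248 FPKM, while Arg2, the mitochondrial arginase, had 60.05, 94.1 and 68.2 FPKM. Sat1 and Oat, of polyamine and ornithine turnover, had 137 ± 19.4 and 55.5 ± 7.76 FPKM. Ido1, which degrades tryptophan, was at 0.0664 FPKM. Of this list, 11 of 17 (64.7%) were expressed, beside 56.0% of all genes.

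For eicosanoids, Alox5ap, which presents arachidonate to 5-lipoxygenase, had 419, 426 and 413 FPKM. Ptgs2, inducible cyclooxygenase, had 0.226, 0.441 and 0.301 FPKM, and Ptgs1, the constitutive form, had 7.14 ± 0.580 FPKM. Every Ptgs1 value was thus above every Ptgs2 value. Ptges, a prostaglandin E synthase, had 11.4 ± 0.128 FPKM. Genes linked to alternative activation had 10 of 20 members expressed, near the 56.0% of all genes. Chil3 (163, 209 and 132 FPKM), Stab1 (125, 105 and 204 FPKM) and Folr2 (70.5 ± 7.61 FPKM) were high, while Retnla, Klf4 and Irf4 were at 0.344, 0.482 and 0.174 FPKM.

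Inflammasome and pyroptosis genes were expressed in 23 of 24 cases. Ninj1, which ruptures the membrane late in lytic death, had 837, 901 and 899 FPKM. Gsdmd, the pore-forming gasdermin, had 133, 134 and 116 FPKM. The sensor Nlrp3 had 23.02, 21.3 and 22.3 FPKM, the adaptor Pycard 51.99 ± 2.17 FPKM, and the protease Casp1 34.4, 33.2 and 27.2 FPKM. Gsdme, another gasdermin, was at 0.147 FPKM. All 20 genes listed as brakes on TLR signalling were expressed, at a median of 22.1 FPKM. Among them Nfkbia, which holds NF-kappa-B in the cytoplasm, had 193, 184 and 172 FPKM, and Socs3, which curbs cytokine receptors, had 159.8, 162 and 160.2 FPKM. Dusp1, a MAP kinase phosphatase, had 86.4 ± 10.1 FPKM, Zfp36, which destabilises cytokine mRNAs, 69.4 ± 9.25 FPKM, and Irak3, a kinase-dead member of the IRAK family, 45.2 ± 6.56 FPKM.

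Of the 109 cytokine, chemokine and growth factor genes in the lists, 48 (44.0%) were expressed, beside 56.0% of all genes. CC chemokines were the most abundant of them apart from Saa3, which stands in the growth factor list. Ccl5 took most of their total. After it came Ccl6 (313, 479.98 and 334 FPKM) and Ccl9 (207, 243 and 175 FPKM), both highest in WT-2. Ccl2, which draws monocytes, had 64.5, 78.0 and 45.8 FPKM, with WT-2 highest and WT-3 lowest. Ccl3 and Ccl12 had 36.0 ± 6.5 and 30.1 ± 7.69 FPKM, and their ranges overlapped, so their order is not resolved. WT-2 was highest for 8 of the 10 expressed CC chemokines, whose median length was 795.5 bases, beside 37.5% of all expressed genes. Ccl22 and Ccl20 were at 0.0779 and 0.0719 FPKM.

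Among CXC chemokines, Pf4 had 358, 413 and 287 FPKM and Cxcl16, a membrane-bound scavenger and chemokine, 264, 282 and 274 FPKM. Ppbp and Cxcl13 had 66.8 ± 16.9 and 34.5 ± 2.90 FPKM. Cxcl10, an interferon-stimulated chemokine, had 9.37, 11.3 and 9.19 FPKM, each of them far under Ccl5. Cxcl1 and Cxcl2, which draw neutrophils, had 3.11, 3.51 and 2.07 FPKM and 4.05, 5.22 and 3.72 FPKM. Cxcl3 was below the limit in WT-2 alone, at 1.25, 0.595 and 1.06 FPKM.

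The interleukin-1 family was present mainly through Il1b. Il1b, which is cleaved to its active form by Casp1, had 141, 167 and 126 FPKM. Il1a had 11.2, 9.52 and 6.59 FPKM and the antagonist Il1rn 24.3, 31.8 and 20.5 FPKM, so each Il1rn value was above each Il1a value and under each Il1b value. Il18 and its binding protein Il18bp had 15.9 ± 3.54 and 30.3 ± 5.83 FPKM. Il33, Il1f6 and Il1f9 were at 0.0246, 0.0530 and 0.509 FPKM.

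Other interleukins were mostly low, with 6 of 21 (28.6%) expressed, beside 56.0% of all genes. A further 11 genes of that list are not among the 16266 genes. Ebi3, a subunit shared by interleukins 27 and 35, had 127, 101 and 129 FPKM. Its partner Il27 had 3.46, 3.0 and 2.18 FPKM. Il10, which damps inflammation, had 7.42, 5.54 and 4.09 FPKM, in no library above 10. Il6, a first-wave cytokine of LPS-treated macrophages, had 0.0505, 0.0663 and 0 FPKM, from 2, 3 and 0 counts. Il12b, the subunit shared by interleukins 12 and 23, had 1, 1 and 0 counts. A library without a count of Il6 could still hold up to 3 counts by sampling, or 0.0643 to 0.0758 FPKM, and for Il12b 0.0293 to 0.0345 FPKM; both bounds cover counting error only. Il12a stood at 1.09, 0.566 and 0.549 FPKM.

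TNF family and interferon genes lay low too. Tnf had 12.3, 6.99 and 8.41 FPKM, highest in WT-1. Tnfsf12 had 15.7 ± 1.91 FPKM, with 47.4% of its words in other genes, and Ltb, lymphotoxin beta, had 8.42, 8.07 and 8.06 FPKM. Ifnb1, interferon beta, had 0, 0.328 and 0.127 FPKM from 0, 10 and 4 counts. The other interferon genes of that list were Ifnz, at 0.00557 FPKM, and 10 not analysed here. Of growth factors, Mif (177 ± 10.6 FPKM), Spp1, osteopontin (144, 212 and 149.5 FPKM), Tgfb1 (155, 133 and 211 FPKM) and Igf1 (27.8 ± 2.08 FPKM) followed Saa3 and Grn. Gdf15 and Kitl were at 0.710 and 0.185 FPKM.

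**Figure D3:**
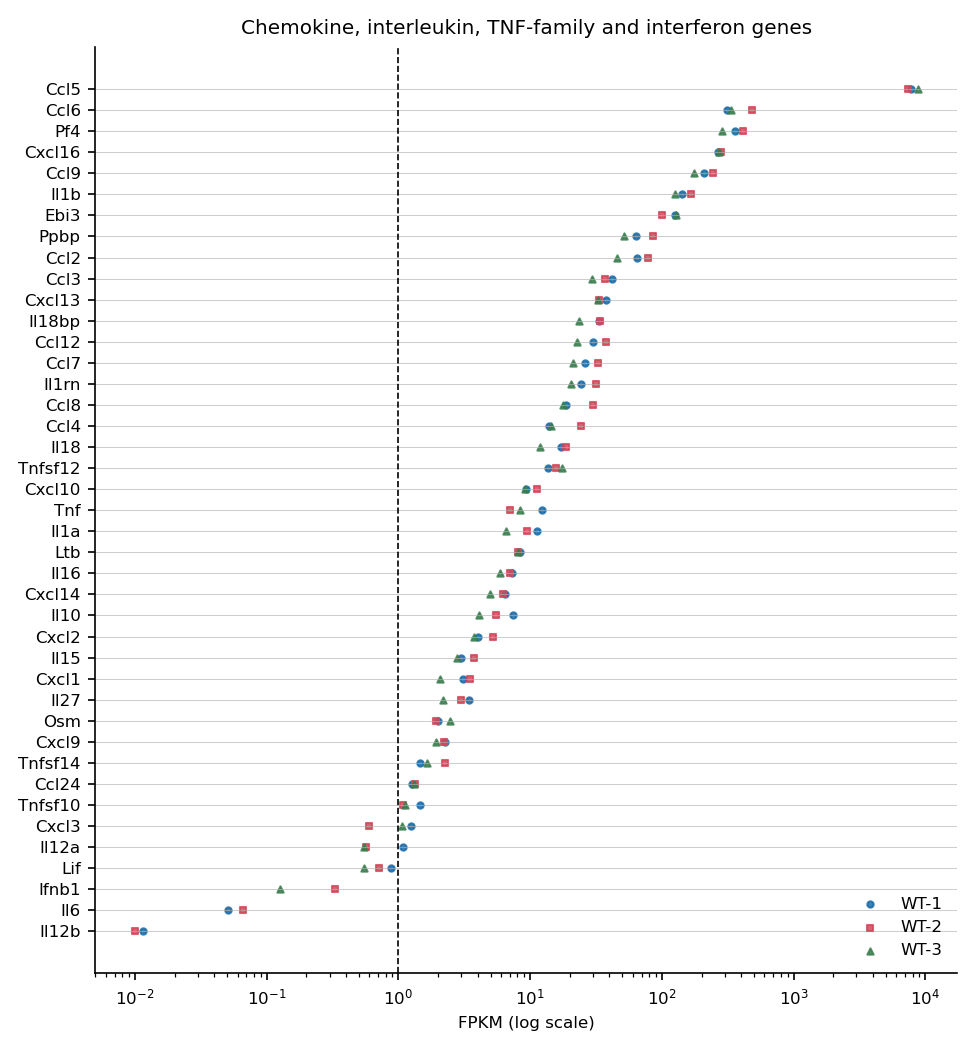
FPKM on a log axis for expressed chemokine, interleukin, TNF-family and interferon genes and 6 that were not expressed (Cxcl3, Il12a, Lif, Ifnb1, Il6 and Il12b), with 1 point per WT library; values of 0 cannot be drawn, and the dashed line is 1 FPKM. Ccl5 stands at 7978 FPKM and Il12b at 0.00719, with Il1b at 145 and Tnf at 9.24 between them.

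Receptor genes were expressed in 208 of 338 cases (61.5%), near the 56.0% of all genes. Of the sensors, Unc93b1, which carries endosomal TLRs to their place, had 730.4, 665 and 784 FPKM, and Cd14 had 458, 520.02 and 483 FPKM. Tlr4 itself had 5.83, 5.46 and 5.47 FPKM, and Ly96, which encodes MD-2, 22.7, 18.4 and 17.3 FPKM. Tlr2 was the most abundant TLR transcript, at 97.5, 96.8 and 86.0 FPKM, and its lowest value was above the highest of Tlr13 (62.2 ± 6.65 FPKM). Ly86 and Cnpy3, helpers of TLR function, had 148 ± 19.6 and 81.6 ± 3.88 FPKM. In the cytosol, Zbp1, a nucleic acid sensor, had 137, 112 and 103 FPKM, Dhx58 86.8 ± 10.6 FPKM, Ddx58, which encodes RIG-I, 45.8 ± 5.59 FPKM, and Sting1 36.2 ± 3.69 FPKM.

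Of Fc receptors 7 of 12 (58.3%) were expressed and of C-type lectins 15 of 24 (62.5%), near the 56.0% of all genes. Of scavenger and clearance receptors 18 of 26 (69.2%) were expressed. Fcer1g, the signalling chain of Fc receptors, had 1724, 1644 and 1380.4 FPKM, and Tyrobp, the DAP12 adaptor, 1617, 1723 and 1459 FPKM. Their ranges overlapped. The IgG receptors Fcgr4, Fcgr2b, Fcgr1 and Fcgr3 had 534 ± 101, 516 ± 63.2, 314 ± 34.6 and 292 ± 34.6 FPKM. The ranges of Fcgr4 and Fcgr2b overlapped, so their order is not resolved. C-type lectins were led by Clec4a1 (456 ± 23.4 FPKM), Clec4a2 (387 ± 68.0 FPKM) and Clec4d (334 ± 56.2 FPKM). Cd68 had 651 ± 27.6 FPKM, Stab1 varied from 105 to 204 FPKM, and the lipid sensor Trem2 had 79.1, 101 and 87.7 FPKM. Mrc1, the mannose receptor, had 18.9 ± 1.91 FPKM. Fcer2a and Fcmr, Fc receptors of lymphocytes, were at 0.0304 and 0.00564 FPKM.

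Of chemoattractant receptors 13 of 30 (43.3%) were expressed, beside 56.0% of all genes. The formyl peptide receptors Fpr2 and Fpr1 had 387, 422 and 324 FPKM and 317, 317 and 259 FPKM. C3ar1 and C5ar1, for complement fragments, had 171 ± 9.09 and 83.1 ± 11.04 FPKM. Ccr2, the receptor of Ccl2, had 0.695, 0.774 and 0.559 FPKM, below the limit. Cxcr2 was at 0.427 FPKM. Growth factor receptors were led by Csf1r, on which macrophage survival depends, at 771, 699.7 and 910.1 FPKM. Csf2rb and Csf3r had 138 ± 20.0 and 89.9 ± 4.57 FPKM.

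Of interleukin and interferon receptors 18 of 38 (47.4%) were expressed, at a median of 1.37 FPKM over the whole list. Of TNF superfamily receptors 13 of 26 (50%) were expressed, at a median of 0.941 FPKM. Both shares were near the 56.0% of all genes. Il2rg, the common gamma chain, had 185, 173 and 172 FPKM. Both chains of the interferon gamma receptor, Ifngr1 and Ifngr2, had 113 ± 8.97 and 124 ± 8.30 FPKM, with overlapping ranges. Il10ra and Il10rb, for interleukin 10, had 69.8 ± 1.63 and 84.6 ± 2.21 FPKM. The TNF receptors Tnfrsf1b and Tnfrsf1a had 176, 162 and 184 FPKM and 124, 108 and 126 FPKM, and the lowest Tnfrsf1b value was above the highest Tnfrsf1a value. Adgre1, the F4/80 antigen, had 1105, 985 and 918 FPKM and was the highest listed G protein-coupled receptor. P2rx4 and P2ry6, for extracellular nucleotides, had 239 ± 8.21 and 139 ± 15.1 FPKM. Itgam and Itgb2, which form complement receptor 3, had 471 ± 24.3 and 285 ± 22.9 FPKM. Itgam shares 67.9% of its words with other genes. Lgals9 and Vsir led the costimulatory and checkpoint ligands, at 324 ± 38.8 and 209 ± 1.39 FPKM, while Cd83 and Pdcd1lg2 were at 0.841 and 0.226 FPKM.

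Transcription factor genes in the lists were expressed in 122 of 183 cases (66.7%), beside 56.0% of all genes. The authors' own column of transcription factor families names 1130 genes, of which 486 (43.0%) were expressed, with a median of 4.96 FPKM among them. Irf7, an interferon-induced factor that drives interferon genes, stood highest at 1480.5, 1371 and 1349 FPKM. Cebpb had 397, 435 and 513 FPKM and Spi1, which encodes the myeloid factor PU.1, 346, 336 and 364 FPKM. These 3 did not overlap. Maf, another macrophage factor, had 87.7 ± 13.7 FPKM, and Id2, an inhibitor of bHLH factors, had 70.9 ± 7.02 FPKM.

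The NF-kappa-B list was expressed whole, at a median of 23.1 FPKM. Rela and Nfkb1, subunits of the classical dimer, had 44.2 ± 7.04 and 30.7 ± 4.06 FPKM. Bcl3, a nuclear partner, had 59.7 ± 12.4 FPKM. Rel had 2.54, 1.78 and 2.14 FPKM, the lowest of the list. Irf8, Irf5, Irf9 and Irf1 had 91.8 ± 2.73, 63.5 ± 5.14, 43.5 ± 2.93 and 41.2 ± 3.02 FPKM, while Irf4 was at 0.174 FPKM. Stat6, Stat2 and Stat3 had 63.2 ± 2.40, 59.4 ± 7.59 and 50.1 ± 4.12 FPKM, and Stat4, a factor of T and NK cells, 0.177 ± 0.0415 FPKM. Junb, Xbp1, Atf4, Batf and Jund, of the bZIP factors, had 119.9, 96.5, 92.0, 80.7 and 67.5 FPKM.

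Families differed in how many of their members were expressed. Nr1h2, which encodes LXR beta, led the nuclear receptors at 60.2 ± 3.20 FPKM. Of these 13 of 30 (43.3%) were expressed, beside 56.0% of all genes. Nr4a1 was at 0.502 FPKM. Tfe3, a regulator of lysosomal genes, had 48.3 ± 4.56 FPKM. By the authors' families, 38 of 45 TF_bZIP genes (84.4%), 13 of 14 ARID genes (92.9%) and 9 of 10 RHD genes (90%) were expressed. It was 17 of 23 for MYB genes (73.9%) and 15 of 23 for ETS genes (65.2%). Against these stood 17 of 113 Homeobox genes (15.0%) and 0 of 11 T-box genes. The share over all families was 43.0%. Of factors that define other lineages, Gata1 alone was expressed, at 2.32, 2.18 and 1.89 FPKM, while Gata2, Hnf4a and Sox9 were at 0.127, 0.0296 and 0.0944 FPKM. Of the 30 genes of this list, 11 are not among the 16266 genes.

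Checked against its markers, the labelled cell type held. Of the macrophage list, 19 of 20 were expressed, beside 56.0% of all genes. The whole list had a median of 479 FPKM and took 6.41% ± 0.503 of the total. In bulk samples fewer cells of a type and less RNA per cell cannot be told apart. Of genes that mark neutrophils and their precursors 10 of 13 (76.9%) were expressed, and the median over the whole list was 30.05 FPKM. The calgranulins S100a9 and S100a8 had 525, 705 and 447 FPKM and 435, 569.5 and 357 FPKM, Ngp 293 ± 55.6 FPKM, and the granule proteases Elane and Prtn3 86.2 ± 16.6 and 72.5 ± 14.01 FPKM. Ly6g had 1.39, 2.64 and 0.757 FPKM. WT-2 was highest for 9 of these 10 expressed genes, beside 37.5% of all expressed genes, and the median length of the 10 was 985 bases. The list summed to 1491, 2023 and 1420.2 FPKM in WT-1, WT-2 and WT-3. The part of such cells in any level was not tested.

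Of lymphocyte markers, 1 of 8 of T and NK cells and 2 of 9 of B and plasma cells were expressed, beside 56.0% of all genes. A further 4 genes of the T and NK cell list are not among the 16266 genes. Gzma and Prf1 had no count in any of the 3 libraries, and Cd3d, Cd3g and Pax5 had means of 0.0181, 0.00939 and 0.00117 FPKM. Cd4, which macrophages can also express, had 2.61 ± 0.634 FPKM, and Cd79b, a chain of the B cell receptor, 8.92, 7.85 and 7.13 FPKM. Jchain, the joining chain of secreted antibodies, had 1.55, 2.71 and 1.63 FPKM and Il7r, the interleukin 7 receptor, 0.762, 1.29 and 1.39 FPKM. The part of lymphocytes in any level was not tested. Of the dendritic cell list Bst2 and Batf3 alone were expressed, and Flt3, Xcr1 and Clec9a were at 0.0189, 0.00216 and 0.0187 FPKM. Of the stromal list 6 of 13 (46.2%) were expressed, led by Col1a2 (14.8 ± 2.94 FPKM) and Sparc (14.3 ± 0.418 FPKM). Among megakaryocyte and red cell markers, Pf4 and Ppbp were high and Itga2b had 15.2 ± 1.73 FPKM, while Alas2 was at 0.0326 FPKM. Of the osteoclast list 5 of 8 (62.5%) were expressed, near the 56.0% of all genes. Acp5 had 357, 308 and 302 FPKM, Itgb3 9.78 ± 0.605 FPKM, Nfatc1 6.83 ± 1.54 FPKM, Ctsk 2.81 ± 0.858 FPKM and Atp6v0d2 2.30 ± 0.389 FPKM, and Calcr was at 0.00424 FPKM.

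Capns1, the gene deleted in the series' other group, had 225, 219 and 239 FPKM in WT-1, WT-2 and WT-3. It encodes the small subunit shared by calpains 1 and 2 and lies on chromosome 7 at 30186934 to 30198883 (GRCm38.p6). The 3 KO libraries had 4.19 to 4.56 FPKM, so by this gene all 6 libraries matched the WT or KO of their titles. The differing Capns numbers of the KO labels, the treatment and the replicate numbers are not checked by it. In WT cells Capn1 and Capn2, the catalytic subunits, had 39.2 ± 3.85 FPKM and 22.4 ± 1.32 FPKM, and the inhibitor Cast 7.89 ± 0.411 FPKM.

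The 3 libraries ranked genes much alike. Across the 9117 expressed genes, log2 FPKM correlated at Pearson r = 0.994 between WT-1 and WT-2, 0.992 between WT-1 and WT-3, and 0.989 between WT-2 and WT-3, as a description over genes that share a library. WT-2 and WT-3 differed by over 1.5-fold for 527 genes and by over 2-fold for 44. WT-1 and WT-2 did so for only 169 and 7. The median CV of an expressed gene was 9.52%, while counting error alone gives a median of 2.82%. By level it ran from 12.2% at 1 to 3 FPKM to 8.10% at 30 to 100 FPKM and was 9.53% from 300 FPKM up. The biological coefficient of variation from edgeR, the spread left after counting error, was 12.1%, and it was 14.3%, 11.7% and 9.36% without WT-1, WT-2 and WT-3.

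**Figure D4:**
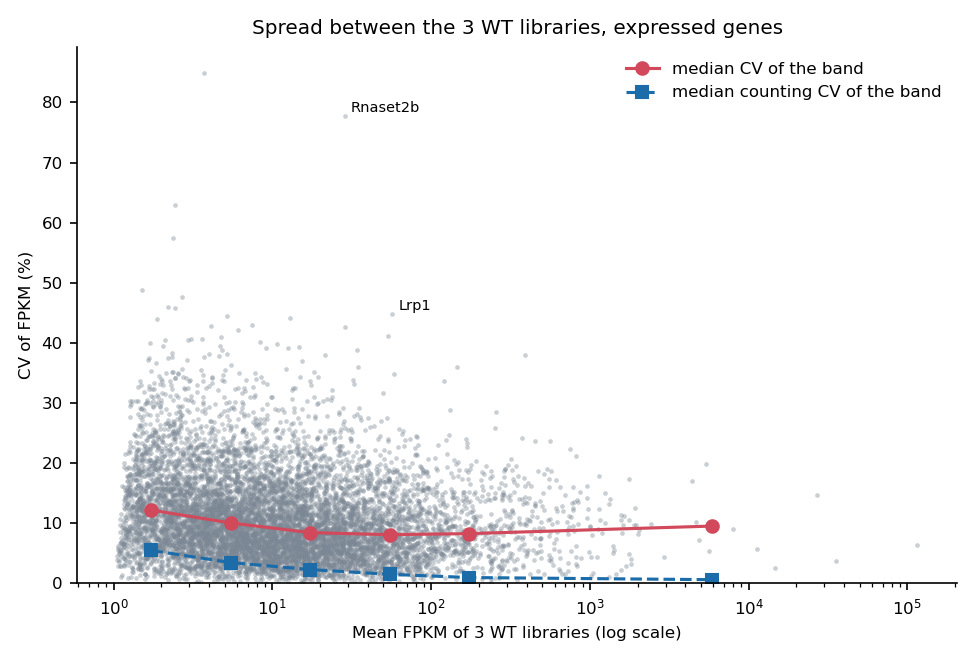
CV of FPKM over 3 WT libraries (percent) against mean FPKM (log axis), 1 point per expressed gene. Red circles are the median CV in each band of level and blue squares the median CV that counting error alone gives, and the red line stays between 8.10% and 12.2% while the blue one falls to 0.616%.

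The most variable genes shared a pattern over the libraries. Of 6074 protein-coding genes with a mean of at least 5 FPKM, Rnaset2b had the largest CV, 77.7%, with 17.6, 13.9 and 54.0 FPKM. Its near-identical neighbour Rnaset2a had 136, 129 and 114 FPKM, and the sum of both had a CV of 8.02%. Lrp1, a large endocytic receptor, had 50.3, 35.5 and 85.2 FPKM, Fasn, fatty acid synthase, 9.69, 9.48 and 19.4 FPKM, and Polr2a, the largest subunit of RNA polymerase II, 25.2, 18.8 and 42.6 FPKM. Serpinb1a, a protease inhibitor, went the other way at 6.78, 10.9 and 4.64 FPKM, as did the monocyte marker Ly6c2 at 71.7, 60.3 and 29.1 FPKM. Prr12, Pcnx3 and Samd9l were also among the 10. WT-3 was highest in 7 of these 10 and in 68 of the 100 most variable genes, beside 35.7% of all 6074.

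Gene length and base composition moved with these differences. The 100 most variable genes had a median length of 5469 bases, beside 2836 for all 6074. Genes of at most 1000 bases deviated from their mean over the libraries by a median log2 value of 0.12 in WT-2 and -0.15 in WT-3, and genes of over 8000 bases by -0.11 and 0.10. WT-1 stayed within 0.03 in every length band. In WT-3 the deviation ran from -0.08 at a G+C content of at most 44% to 0.17 above 60%. In that highest band WT-1 and WT-2 deviated by -0.09 and -0.06. The part of RNA quality or library preparation in these trends was not tested.

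The same libraries stood out in whole classes. WT-2 was highest for 75 of the 80 expressed ribosomal protein genes, whose median length was 792 bases, and for 17 of the 21 galectin, S100 and annexin genes, with a median of 1395 bases. WT-3 was highest for 13 of the 15 expressed growth factor receptor genes and for 12 of the 14 expressed integrin genes, with medians of 6418 and 5049.5 bases. It was also highest for 18 of 25 expressed myeloid lineage factors, with a median of 3642 bases. WT-1 was highest for 13 of 19 expressed MHC class I genes and for 10 of 15 guanylate-binding protein and immunity-related GTPase genes, besides the interferon-response genes above. Among all expressed genes WT-1 was highest for 26.4%, WT-2 for 37.5% and WT-3 for 36.1%. Differences between cultures and between library preparations cannot be told apart with 1 library per replicate.

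**Figure D5:**
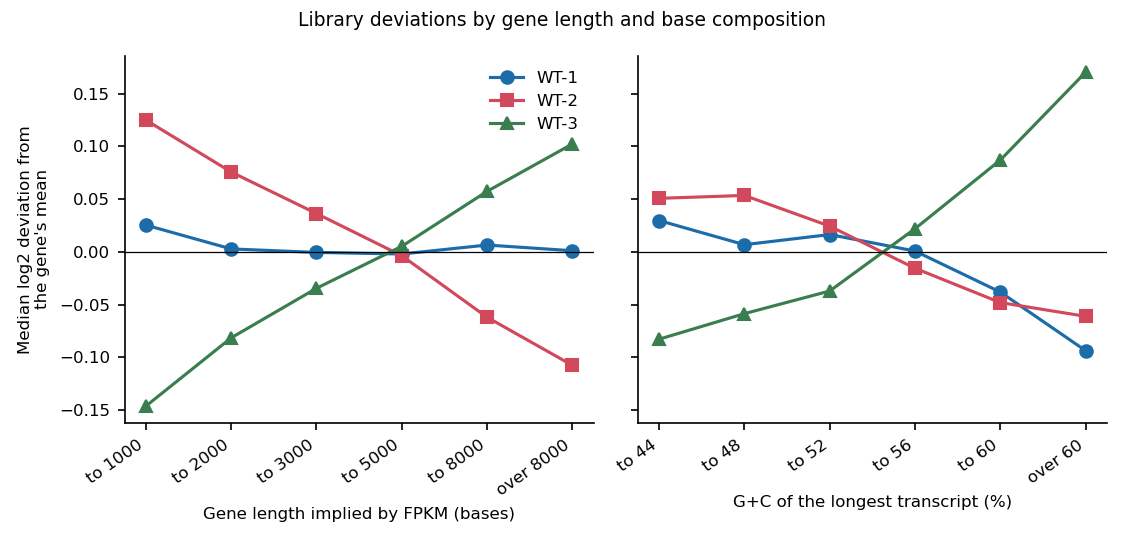
Median log2 deviation of each WT library from the mean of the 3, by gene length in bases (left) and by G+C content in percent (right). WT-2 falls from 0.12 to -0.11 and WT-3 rises from -0.15 to 0.10 with length, while WT-1 stays within 0.03. With G+C content WT-3 rises to 0.17 above 60%, where WT-1 and WT-2 are at -0.09 and -0.06.

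The least variable genes had nearly equal values in the 3 libraries. Aarsd1 had 15.0, 15.1 and 15.1 FPKM, Sp1, a general transcription factor, 9.08, 9.10 and 9.10 FPKM, Tspan31 81.8, 81.9 and 81.9 FPKM, and Ncf4, a subunit of the phagocyte NADPH oxidase, 237, 238 and 236 FPKM. Counting error alone gives Aarsd1 a CV of 3.30%, above the 0.0841% measured, so this order is a description of these libraries. The other 6 of this group of 10 were Klhl5, Sptlc2, Trabd, St13, Ube2g2 and Sart3.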

How the data were processed

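RNA-seq libraries of 3 WT and 3 Capns1 KO macrophage samples, all with LPS for 24 h, were sequenced from total RNA as strand-specific libraries, per the labels' protocols. Per the submitters' processing notes, reads were handled with fastp, HISAT2 and HTSeq on mm10; the sources used here give no versions, strand setting or treatment of reads with several origins. The authors deposited raw counts per gene and FPKM for 16266 genes. Gene lengths were those implied by the deposited counts, FPKM and column totals. For 99.99% of values with 10 or more counts, the implied length was within 1% of the length used for that gene. This shows that a gene's length was constant over libraries and cannot check it against an annotation. Totals were 34694014 to 40913819 counts, so 3 counts, which sampling can turn into 0, were 0.0733 to 0.0865 CPM; these floors and counting CVs cover counting error only.

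Genes were grouped into 72 lists, and the lists and the choice of libraries were made with earlier results of these data known. The lists had 1698 entries after expansion of symbol patterns, of which 22 were found under another symbol while 93 are not analysed here. Named genes were the 25 of highest mean FPKM, up to 6 expressed and 4 low members per list, the 10 of largest and 10 of smallest CV among protein-coding genes of at least 5 FPKM without Gm-numbered or Rik symbols, and a fixed set of cytokine, enzyme, receptor and reference genes. Saa1, Saa2, Lyz1, Isg15, Ly96, Cxcl1, Cxcl2, Mrc1, Ptgs1, Ly6g, Rel and Rnaset2a fall outside that rule and were chosen after their values were seen. Some genes that the rule names are not reported here. Symbols of 16189 genes were matched to RefSeq GRCm38.p6. Shared sequence was the percentage of a gene's 32-base words that also occur in other genes' transcripts (GENCODE vM21, 15990 genes). The biological coefficient of variation was the square root of edgeR's common dispersion with TMM scaling, and the calculation was tested on simulated data. No comparison between groups was made. Alternatives were other FPKM minimums, counts in place of FPKM, other scalings (TMM, DESeq2 size factors), leaving out each library, and, chosen after seeing the data, leaving out genes that share sequence or Saa3. Software was Python 3.11.15, numpy 2.4.6, pandas 2.3.3, scipy 1.17.1, matplotlib 3.10.9, R 4.3.3, edgeR 4.0.16 and DESeq2 1.42.0.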

Additional observations from a re-analysis of the deposited data

How the results depend on the processing

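Of 871 recomputed values for 206 results, 801 were labelled the same and 70 moved. A number of genes was labelled the same within 1.5-fold of the reported value. Any other value was labelled the same within an SD over the libraries, pairs of libraries or leave-one-out values. Leave-one-out values made up 609 of the 871, and 4 of them moved. A mean over the remaining libraries lies close to the mean of all 3 by construction, so most of these could not move. With a minimum of 5 FPKM in place of 1, 5874 genes counted as expressed, and over all alternatives the number ran from 5874 to 11690. In counts the 10 highest genes held 20.6% of a library, and without genes that share over 30% of their words with others (chosen after seeing the data) they held 37.9%. Class shares of counts were 5.22% for iron storage and transport, 3.29% for cathepsins, 1.39% for MHC class I, 1.51% for type I interferon response, 1.27% for oxidative phosphorylation and 3.12% for ribosomal proteins, while those of actin cytoskeleton and lysosomal genes stayed within their spread. With Saa3 left out of the sum (chosen after seeing the data), shares were 10.9% for iron storage, 8.59% for lysosomal genes, 8.40% for ribosomal proteins, 3.80% for cathepsins, 3.64% for actin cytoskeleton, 2.93% for oxidative phosphorylation, 2.30% for type I interferon response and 2.03% for MHC class I, since the denominator is smaller. The median CV was 11.4% over genes of at least 10 counts. Leaving out each library gave a median CV of 6.20% to 9.61%, a biological coefficient of variation of 9.36% to 14.3%, 9173 to 9213 expressed genes and a share of the 10 highest genes of 38.6% to 39.0%. The lowest spread values came without WT-3. Of 640 recomputed gene ranks, 2 moved. No paired analysis was possible because no 2 groups were compared. Depth limits the genes of a few counts, such as Il6, Il12b and Ifnb1, and the spread itself rests on 3 libraries.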

Other observations

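Cell cycle genes were expressed in 29 of 30 cases (96.7%), beside 56.0% of all genes, and the median over the whole list was 8.09 FPKM. Pcna, the replication clamp, had 80.0, 96.2 and 74.1 FPKM. The inhibitor Cdkn1a stood close to it at 69.2, 64.2 and 70.7 FPKM, and Ccnd3, a D-type cyclin, at 76.7, 74.8 and 78.9 FPKM. WT-2 was highest for 18 of the 29 expressed genes of this list, beside 37.5% of all expressed genes. Birc5, which acts in cell division, had 15.4 ± 4.46 FPKM. Of the replication-dependent histone genes, whose mRNAs mostly lack a poly(A) tail, 4 of 21 were expressed, led by H1f2 (25.6 ± 1.05 FPKM) and H2bc4 (14.9 ± 3.03 FPKM).

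Y-linked transcripts were present at low level in each library, with Ddx3y at 2.36, 1.61 and 1.91 FPKM and Kdm5d and Eif2s3y at 1.53 ± 0.210 and 1.43 ± 0.217 FPKM. Xist was not analysed here.

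Among genes for matrix and its turnover, Mmp14, a membrane-bound protease, had 248, 219.7 and 291 FPKM, Timp2 68.4 ± 8.90 FPKM, and Mmp9, a gelatinase, 28.3, 20.4 and 35.2 FPKM, while Mmp3 and Mmp10 were at 0.227 and 0.322 FPKM. Chaperones of the endoplasmic reticulum were led by Calr and P4hb (763 ± 83.7 and 394 ± 18.2 FPKM), and the heat-inducible Hspa1a and Hspa1b were at 0.302 and 0.214 FPKM. By gene ontology terms of the deposited tables, 20 of 33 chemokine activity genes (60.6%) and 54 of 151 cytokine activity genes (35.8%) were expressed. For lysosome genes it was 317 of 393 and for olfactory receptor genes 0 of 16, beside 56.0% of all genes. The chemokine share is near that of all genes. These terms overlap the lists used above and were not tested against them.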
